A study of Homo sapiens with 5 samples.

Results

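The genes described here are transcriptional targets of the coactivators YAP and TAZ, together with the components of the Hippo pathway that restrains them. They were taken from a list of 41 symbols, and 31 had a named probe set in the deposited table, out of 14812 genes with one. The 31 comprised 13 of 21 listed targets and 18 of 20 listed components. CCN1, TGFB2, F3, ASAP1, NUAK2, GADD45A, RBMS3 and PTPN14 among the targets, and the kinases LATS1 and LATS2 among the components, had no named probe set and were not analysed here. Genes that are both a target and a regulator were put in 1 class only, AMOTL2 among the targets.

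All RNA came from TE7, a human esophageal carcinoma cell line. There were 3 clones transduced with pMIRNA1-puro-CDH26, which expresses the cadherin CDH26, and 2 clones transduced with the control construct pMIRNA1-puro-control. Each clone was derived from a single cell, grown to confluence and then kept for 24 h in RPMI with 1.8 mM calcium. The replicates are therefore clones of 1 cell line, each measured on 1 Affymetrix Gene 2.0 ST array. The spread between them includes clonal differences besides array error, and the number of arrays limits the precision. Transduction, cloning and calcium were common to both groups. In such bulk RNA, fewer cells of a kind and less RNA per cell cannot be told apart.

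In the Hippo pathway the kinases STK3 and STK4 activate LATS kinases, which phosphorylate YAP and TAZ and so keep them out of the nucleus. Unphosphorylated YAP and TAZ enter the nucleus, bind TEAD transcription factors and switch on genes for matrix, cytoskeletal and growth proteins. The pathway is known for responding to cell density and to cell junctions, and in squamous epithelium YAP and TAZ are active mainly in basal cells. It acts largely through phosphorylation, which transcript measurements do not show.

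The deposited values are logarithms from which the control mean had been subtracted. They are given as log2, the usual base, although the base is not recorded. The centring makes control clones 1 and 2 equal and opposite for every gene, so the table keeps differences between clones and no expression level. The CDH26 transcript stood at 2.87, 3.01 and 2.63 in CDH26 clones 1 to 3, whereas control clones 1 and 2 were at 0.01 and −0.01. Because levels are lost, the presence of epithelial markers could not be checked. KRT18, a simple-epithelial keratin, and EPCAM had log2 differences of −0.29 ± 0.20 and −0.22 ± 0.13 (SE). Markers fixed for leukocytes and endothelium were largely uncovered, with 4 of 8 and 3 of 6 measured. Their median differences were −0.01 and 0.00, although the lysosomal glycoprotein CD68 differed by 1.07 ± 0.33.

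Most targets averaged lower in CDH26 clones, and the median difference was smaller for the pathway's own components. Of the 13 targets, 11 had a lower and 2 a higher mean, with a median log2 difference of −0.47. Of the 18 components, 15 had a lower and 3 a higher mean, with a median of −0.09. The median over all 14812 genes was 0.00. All 3 CDH26 clones were under both controls in 7 targets (ANKRD1, FJX1, AXL, AMOTL2, TNS3, MYOF and CCN2) and in 4 components (TEAD1, WWC1, NF2 and WWTR1). That pattern was found in 9.93% of all genes. The opposite pattern, every CDH26 clone above both control clones, was found in 0 targets and in the component YAP1, against 8.98% of all genes. These shares are not like for like with the members. Values were tied between clones in 53.7% of all genes, but in 4 of 13 targets and 7 of 18 components. The members were also chosen with earlier results of these data known.

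No member passed an adjusted p of 0.05 (limma with Benjamini-Hochberg adjustment over all genes; adjusted p = 0.626 at the smallest). The same test called 0% of the 14812 genes. CDH26 itself, with a difference of 2.84, had an adjusted p of 0.25 in that limma fit. A gene that was not called may therefore still differ. At an unadjusted p under 0.05, 3 targets were lower (FJX1, TNS3 and MYOF) and 0 higher, and 0 components differed. The shares over all genes were 4.0% lower and 3.51% higher. With 2 against 3 clones the smallest p of an exact permutation test is 0.1, and that test was not used for single genes.

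**Figure D1:**
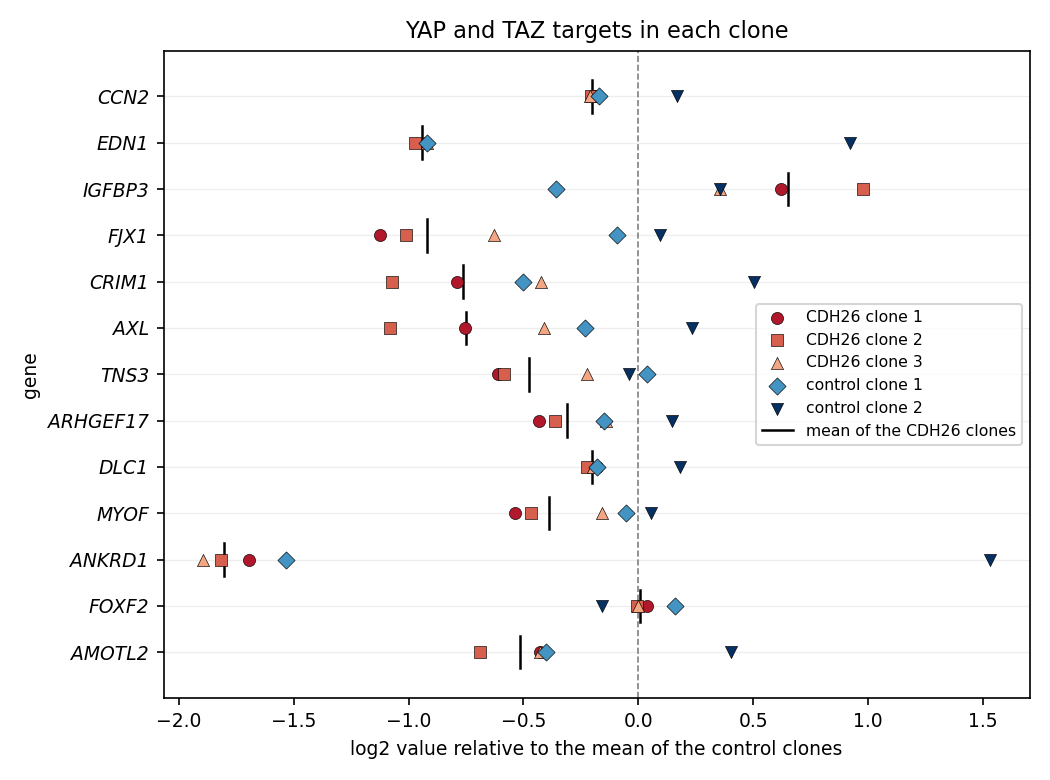
Log2 value relative to the control mean (x axis) for the 13 measured targets (y axis) in each of the 5 clones. Red markers are CDH26 clones, blue markers control clones, and the black bar is the CDH26 mean. ANKRD1, at 1.53 in control clone 2, spans the widest range of the targets, and FJX1 is the target whose CDH26 mean lies farthest below control clone 1.

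Among secreted and membrane-bound targets, 5 of the 6 measured averaged lower in CDH26 clones, with a median difference of −0.76. Leaving out control clone 2 made that median −0.15, and leaving out control clone 1 made it −0.998. FJX1, the human relative of the Drosophila Golgi kinase four-jointed that modifies Fat and Dachsous cadherins, was at −1.12, −1.01 and −0.63 in CDH26 clones 1 to 3, whereas control clones 1 and 2 were at −0.09 and 0.09. The groups did not overlap, and the gap between them was wider than the spread within either. The mean was −0.92 ± 0.26 (SD, n = 3) in CDH26 clones and 0.00 ± 0.13 (SD, n = 2) in control clones. This is a 0.528-fold level, with a 95% interval of the log2 difference from −1.43 to −0.41 (limma, unadjusted p = 0.0078, adjusted p = 0.626).

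AXL, the receptor tyrosine kinase bound by GAS6, was at −0.75, −1.08 and −0.41 in CDH26 clones 1 to 3, against −0.23 and 0.23 in control clones 1 and 2. All CDH26 clones were below both control clones, and clone 3 lay closest to them. The difference was −0.75 ± 0.27 (SE), a 0.595-fold level, with an interval from −1.50 to 0.0047. CRIM1, a transmembrane protein that binds bone morphogenetic proteins, was at −0.79, −1.07 and −0.42 in the CDH26 clones and at −0.50 and 0.50 in control clones 1 and 2. CDH26 clone 3 lay above control clone 1, so the groups overlapped; the difference was −0.76 ± 0.39 (SE).

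EDN1, the precursor of the vasoconstrictor endothelin-1, was at −0.92, −0.97 and −0.92 in CDH26 clones 1 to 3, against −0.92 and 0.92 in control clones 1 and 2. CDH26 clone 3 and control clone 1 had the same value, counting values within 1e-05 as tied. Only control clone 2 stood apart, and the difference was −0.94 ± 0.60 (SE). CCN2, or connective tissue growth factor, a matricellular protein and the textbook target of YAP, was at −0.19, −0.21 and −0.21 in the CDH26 clones and at −0.17 and 0.17 in the control clones. The highest CDH26 clone lay 0.02 below control clone 1. CCN2 is the mean of 2 probe sets, and on neither of them alone did every CDH26 clone fall below both control clones.

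IGFBP3, which binds insulin-like growth factors, went the other way from the rest of this class. It was at 0.62, 0.98 and 0.36 in CDH26 clones 1 to 3, against −0.36 and 0.36 in control clones 1 and 2. CDH26 clone 3 was tied with control clone 2, so the groups touched. The difference was 0.65 ± 0.31 (SE), a 1.57-fold level, with an interval from −0.22 to 1.52.

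All 4 measured targets that act on the cytoskeleton or membrane averaged lower in CDH26 clones, with a median difference of −0.35. TNS3, a tensin that links integrins to actin, was at −0.61, −0.59 and −0.22 in CDH26 clones 1 to 3, against 0.04 and −0.04 in control clones 1 and 2. The controls lay close together and all CDH26 clones below them. The difference was −0.47 ± 0.15 (SE; limma, unadjusted p = 0.032), a 0.72-fold level. MYOF (myoferlin, a membrane-repair protein) was at −0.54, −0.47 and −0.16 in the CDH26 clones and at −0.05 and 0.05 in control clones 1 and 2. Its difference was −0.39 ± 0.14 (SE; limma, unadjusted p = 0.0493).

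ARHGEF17, a guanine nucleotide exchange factor, stood at −0.43, −0.36 and −0.14 in CDH26 clones 1 to 3, with control clones 1 and 2 at −0.15 and 0.15. CDH26 clones 1 and 2 were below both controls and clone 3 lay just above control clone 1. DLC1, a GTPase-activating protein, was at −0.18, −0.23 and −0.20, against −0.18 and 0.18. One CDH26 clone was tied with control clone 1, and the difference was −0.20 ± 0.12 (SE).

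Among targets with nuclear roles, ANKRD1, an ankyrin repeat protein of nucleus and sarcomere, had the largest difference of any member. Its values were −1.69, −1.82 and −1.89 in CDH26 clones 1 to 3, against −1.53 and 1.53 in control clones 1 and 2. The CDH26 clones formed a tight group 0.16 or more below control clone 1, whereas the control clones were 3.06 apart. The difference from the control mean was −1.80 ± 1.01 (SE), a 0.287-fold level with an interval from −4.63 to 1.02. FOXF2, a forkhead transcription factor, was at 0.04, −0.0078 and −0.0019 in the CDH26 clones, between control clones 1 and 2 at 0.16 and −0.16. AMOTL2, an angiomotin-like protein that holds YAP in the cytoplasm and is also its target, was at −0.43, −0.69 and −0.43, against −0.40 and 0.40 in control clones 1 and 2. Its difference was −0.52 ± 0.28 (SE), with CDH26 clones 1 and 3 only 0.02 below control clone 1.

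TEAD factors recognise GGAATG, read as CATTCC on the other strand. That motif was searched on both strands in RefSeq windows of GRCh38.p14 from 250 bases before to 50 after each annotated start. Windows existed for 10 of the 13 measured targets, and 6 of the 10 held it in at least 1 window (CCN2, ANKRD1, AMOTL2, AXL, EDN1 and FOXF2). The motif was not in the windows of FJX1, TNS3, MYOF and IGFBP3. Of the components, 2 of 14 with windows held it, AJUBA and YAP1. Over all 27305 genes with windows the share was 16.7%, and 1.70% had 2 or more matches in 1 window; a gene with several starts has several windows. The sequences of 4 measured targets are shown to let the motif, in capitals, be read in place; they were taken in order of matches per window and then of symbol: CCN2 (chr6:131951323-131951622, minus strand), ANKRD1 (chr10:90921038-90921337, minus strand), AMOTL2 (chr3:134374398-134374697, minus strand) and AXL (chr19:41226505-41226804, plus strand). The AMOTL2 and AXL windows are each 1 of 2 for the gene.
CCN2: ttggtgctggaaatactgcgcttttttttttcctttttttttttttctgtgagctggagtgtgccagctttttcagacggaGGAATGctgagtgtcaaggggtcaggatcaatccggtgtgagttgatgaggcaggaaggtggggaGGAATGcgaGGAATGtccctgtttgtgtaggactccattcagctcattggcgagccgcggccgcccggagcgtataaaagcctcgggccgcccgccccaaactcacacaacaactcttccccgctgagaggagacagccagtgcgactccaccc
ANKRD1: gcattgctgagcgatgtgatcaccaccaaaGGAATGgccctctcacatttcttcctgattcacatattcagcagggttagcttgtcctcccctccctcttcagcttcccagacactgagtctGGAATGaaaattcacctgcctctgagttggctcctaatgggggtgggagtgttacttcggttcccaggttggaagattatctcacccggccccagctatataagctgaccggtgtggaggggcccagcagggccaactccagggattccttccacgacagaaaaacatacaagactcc
AMOTL2: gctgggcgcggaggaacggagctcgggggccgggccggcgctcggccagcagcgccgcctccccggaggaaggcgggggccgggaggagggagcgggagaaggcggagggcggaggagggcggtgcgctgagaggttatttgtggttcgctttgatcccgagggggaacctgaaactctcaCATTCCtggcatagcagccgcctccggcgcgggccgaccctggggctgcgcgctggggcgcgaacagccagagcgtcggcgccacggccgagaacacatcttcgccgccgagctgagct
AXL: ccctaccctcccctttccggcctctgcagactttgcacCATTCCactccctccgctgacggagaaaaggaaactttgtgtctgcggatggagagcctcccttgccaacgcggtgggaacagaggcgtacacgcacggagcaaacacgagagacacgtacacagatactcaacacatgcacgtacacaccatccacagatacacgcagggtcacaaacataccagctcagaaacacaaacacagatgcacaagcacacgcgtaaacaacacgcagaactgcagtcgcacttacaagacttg
CCN2 held 3 matches, with first bases 169, 104 and 95 bases before the annotated start, and ANKRD1 held 2, at 220 and 128 bases before it. AMOTL2 had 1 match at 69 bases and AXL 1 at 212 bases before the start. Of these 4 genes, the control clones lay farther apart than control clone 1 and the CDH26 mean in CCN2, ANKRD1 and AMOTL2, and less far apart in AXL. A match describes the letters of the window and not binding.

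The targets differed in how the control clones lay, a grouping made after the values were seen and not tested. In 8 of 13 targets the control clones lay farther apart than control clone 1 and the CDH26 mean. The exceptions were FJX1, AXL, TNS3, MYOF and IGFBP3. Among the components it was 15 of 18, with TEAD2, TEAD3 and VGLL4 the exceptions, against 46.6% of all genes. Control clone 2 was the highest of the 5 clones in 10 of 13 targets and 14 of 18 components, against 22.6% of all genes. The median gap between control clones, clone 2 minus clone 1, was 0.36 over the targets and 0.22 over the components, and 0.00 over all genes.

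**Figure D2:**
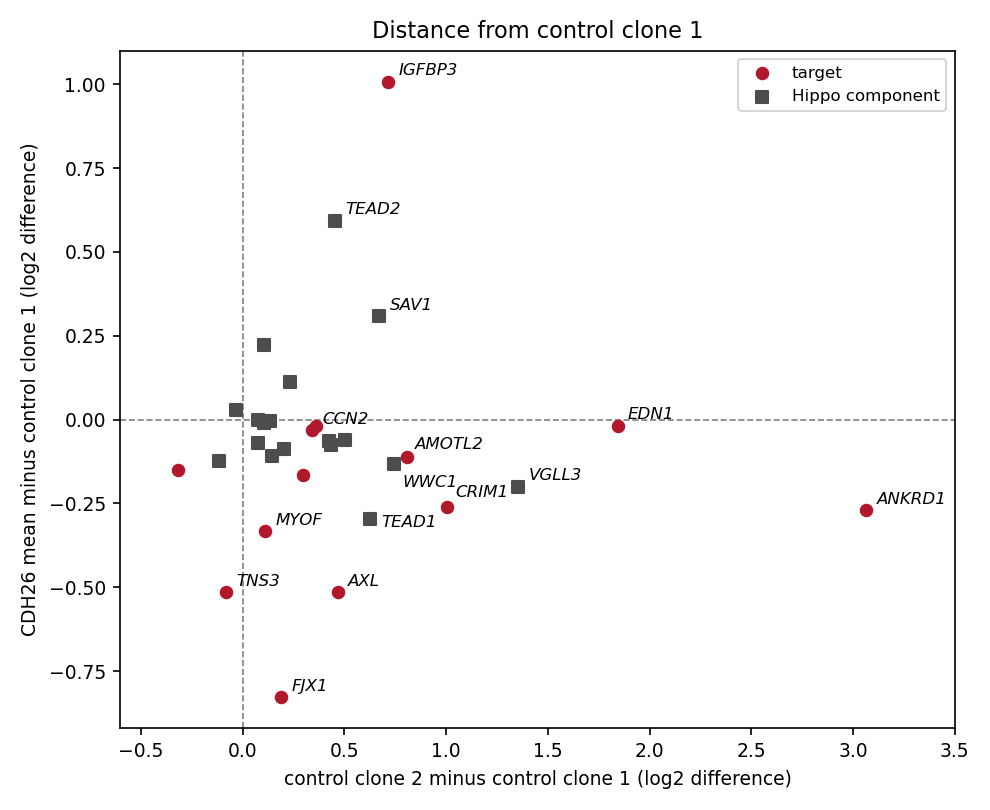
For each of the 31 measured members, the x axis gives control clone 2 minus control clone 1 and the y axis the CDH26 mean minus control clone 1, both log2 differences. Circles are targets and squares components. ANKRD1 (3.06 on the x axis, −0.27 on the y axis) and EDN1 (1.84 and −0.02) lie far to the right. FJX1 (0.19 and −0.83), TNS3 (−0.08 and −0.51), AXL (0.47 and −0.51) and MYOF (0.11 and −0.33) lie to the left, farther from 0 on the y axis than on the x axis.

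Setting the CDH26 clones against each control clone in turn showed what rests on control clone 2. Against control clone 1 alone the median target difference was −0.16 in place of −0.47, and against control clone 2 alone it was −0.46. FJX1 differed by −0.83 from control clone 1 and by −1.01 from control clone 2. TNS3 differed by −0.51 and −0.43 from the same clones, AXL by −0.51 and −0.98, and MYOF by −0.33 and −0.44. These 4 genes were picked after the values were seen, and the share of all genes with such differences was not counted. The differences are those of the CDH26 mean. The highest CDH26 clone minus control clone 1 was −0.53 in FJX1, −0.26 in TNS3, −0.18 in AXL and −0.10 in MYOF. ANKRD1 differed by −0.27 from control clone 1 and by −3.33 from control clone 2, EDN1 by −0.02 and −1.86, and CCN2 by −0.03 and −0.37. AMOTL2 differed by −0.11 and −0.92, and DLC1 by −0.02 and −0.38. A fit with 1 control clone takes the spread of the CDH26 clones for the control as well, so no calls are given from it. In ANKRD1, EDN1 and CCN2 the control clones had SDs of 2.17, 1.30 and 0.24 (n = 2). The CDH26 clones had SDs of 0.10, 0.03 and 0.01 (n = 3) in the same genes.

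The CDH26 clones also differed among themselves over the targets. The median absolute difference between CDH26 clones 1 and 2 was 0.07, against 0.26 for either of them with clone 3. CDH26 clone 3 lay 0.10 from control clone 1 by the same measure, closer than CDH26 clones 1 and 2, at 0.28 and 0.29. Clone 3 was also the closest over the components, at 0.04, with CDH26 clones 1 and 2 at 0.09 and 0.11, and over all genes, at 0.06, with 0.10 and 0.07. From control clone 2 the distances were 0.59, 0.62 and 0.38 for CDH26 clones 1, 2 and 3. Clone 3 alone was the CDH26 clone nearest the control mean in 9 of the 13 targets and 7 of the 18 components, against 33.9% of all genes. Genes where it was tied with another CDH26 clone, such as AMOTL2, were not counted for clone 3. Ties between clones of either group occurred in 53.7% of all genes, so the 33.9% is a lower limit. ANKRD1 and CCN2 were among the exceptions, each with its lowest value in clone 3. The CDH26 transcript itself had its smallest difference in clone 3.

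The core kinases and their partners had a median difference of −0.06, or −0.0028 without control clone 2 and −0.19 without control clone 1. STK3 and STK4, the kinases at its head, had differences of −0.04 ± 0.03 and −0.07 ± 0.05 (SE), with 1 CDH26 clone tied with control clone 1 in each. SAV1, their scaffold, was at 0.01, −0.03 and −0.06 in CDH26 clones 1 to 3, all between the control clones at −0.34 and 0.34. MOB1A, the LATS coactivator, was at −0.27, −0.24 and −0.02, against −0.07 and 0.07. In none of these 4 genes did the groups separate. The 95% intervals were −0.13 to 0.05 for STK3 and −0.20 to 0.06 for STK4. They were wider for SAV1, −0.65 to 0.60, and for MOB1A, −0.47 to 0.11. SAV1 differed by 0.31 from control clone 1 and by −0.36 from control clone 2.

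The upstream activators were both lower in every CDH26 clone. WWC1, or KIBRA, a scaffold that promotes LATS phosphorylation, was at −0.44, −0.62 and −0.46 in CDH26 clones 1 to 3, against −0.37 and 0.37 in control clones 1 and 2. NF2, which encodes the membrane-linked tumour suppressor merlin, was at −0.27, −0.37 and −0.23, against −0.22 and 0.22. For both genes the CDH26 clones lay just under control clone 1, and the controls were farther apart than that. The differences were −0.51 ± 0.25 for WWC1 and −0.29 ± 0.15 for NF2 (SE). From control clone 1 alone they were −0.13 and −0.08.

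AMOT, the angiomotin that binds YAP at junctions, was at −0.33, −0.35 and −0.25 in CDH26 clones 1 to 3, against −0.25 and 0.25 in control clones 1 and 2. CDH26 clone 3 was tied with control clone 1, so the groups overlapped. Its relative AMOTL1 differed by −0.0044 ± 0.08 (SE), as the mean of 2 probe sets that were unlike. On 1 of them the CDH26 clones were at 0.15, 0.03 and −0.01, between control clones 1 and 2 at −0.25 and 0.25. On the other they were at −0.09, −0.02 and −0.08, against 0.02 and −0.02. AJUBA and LIMD1, LIM proteins that bind and inhibit LATS, differed by −0.06 ± 0.04 and −0.11 ± 0.08 (SE). In LIMD1, 2 CDH26 clones were tied with control clone 1 and only CDH26 clone 1, at −0.25, was apart.

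The coactivators differed little at the transcript level. YAP1 was at 0.03, 0.04 and 0.06 in CDH26 clones 1 to 3, against 0.02 and −0.02 in control clones 1 and 2. All CDH26 clones lay above both controls, by a difference of 0.05 ± 0.02 (SE) with an interval from −0.02 to 0.11. It is the mean of 2 probe sets, and on 1 of them the groups overlapped. WWTR1, which encodes TAZ, was at −0.21, −0.24 and −0.12, against −0.10 and 0.10. Every CDH26 clone was below both controls, clone 3 by only 0.02, and the difference was −0.19 ± 0.08 (SE; limma, unadjusted p = 0.0811).

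**Figure D3:**
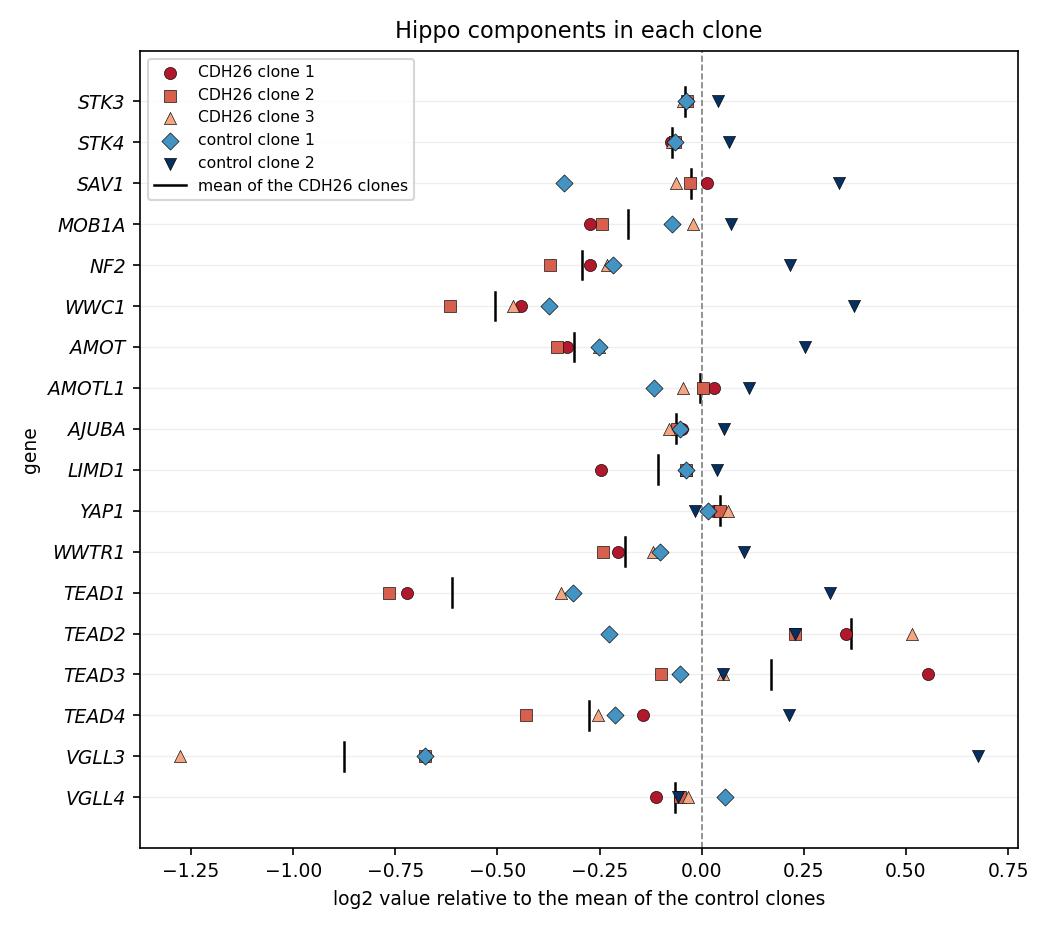
Log2 value relative to the control mean (x axis) for the 18 measured Hippo components (y axis) in each of the 5 clones. Red markers are CDH26 clones, blue markers control clones, and the black bar is the CDH26 mean. Control clone 2 is the highest clone for 14 of the 18 genes, and TEAD1, WWC1, NF2 and WWTR1 have every CDH26 clone below both control clones.

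The TEAD factors, which carry YAP and TAZ to DNA, did not share a direction. TEAD1 was at −0.72, −0.77 and −0.34 in CDH26 clones 1 to 3, against −0.31 and 0.31 in control clones 1 and 2. CDH26 clones 1 and 2 lay well below both controls and clone 3 just below control clone 1. The difference was −0.61 ± 0.26 (SE), a 0.655-fold level, and −0.30 from control clone 1 alone. TEAD2 was at 0.35, 0.23 and 0.51, against −0.23 and 0.23, with CDH26 clone 2 tied with control clone 2; the difference was 0.37 ± 0.18 (SE). TEAD3 was high in CDH26 clone 1 alone, at 0.55, −0.10 and 0.05, against −0.05 and 0.05. TEAD4 was at −0.14, −0.43 and −0.25, against −0.21 and 0.21. The groups overlapped in TEAD2, TEAD3 and TEAD4.

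Of the VGLL cofactors, which bind TEADs, VGLL3 had the largest negative difference of the components, −0.88 ± 0.50 (SE). It was at −0.68, −0.68 and −1.28 in CDH26 clones 1 to 3, against −0.68 and 0.68 in control clones 1 and 2. CDH26 clones 1 and 2 were tied with control clone 1, and control clone 2 and CDH26 clone 3 stood apart. VGLL4, a competitor of YAP for TEADs, differed by −0.07 ± 0.05 (SE).

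Of 39 other reported targets of YAP and TAZ, 25 were measured, and 17 had a lower and 8 a higher mean. Their median difference was −0.15, or −0.07 without control clone 2 and −0.35 without control clone 1. In 6 of the 25 every CDH26 clone lay below both controls and in 2 above, beside 9.93% and 8.98% of all genes. At an unadjusted p under 0.05 (limma), 3 were lower and 1 higher, beside 4.0% and 3.51% of all genes, and 0 passed the adjusted threshold. DDAH1, which degrades asymmetric dimethylarginine, was at −1.05, −1.03 and −0.67, against −0.41 and 0.41 in control clones 1 and 2. CAVIN1, a coat protein of caveolae, was at −0.44, −0.46 and −0.23, against 0.03 and −0.03, and DOCK5, an exchange factor for Rac, at −0.72, −0.63 and −0.21, against 0.04 and −0.04. For CAVIN1 and DOCK5 the controls lay together and every CDH26 clone below, as for TNS3. MARCKS, an actin-binding substrate of protein kinase C, differed by 0.13 ± 0.04 (SE).

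Among 60 other listed regulators of the pathway, 45 were measured and the median difference was −0.02. Every CDH26 clone was below both controls in 6 of the 45 and above in 4, near the shares of 9.93% and 8.98% over all genes. At an unadjusted p under 0.05 (limma), 5 were lower and 3 higher, beside 4.0% and 3.51% of all genes. The genes with the smallest p are given next as single genes, not as a feature of the list. The atypical cadherin FAT4, whose mouse and fly relatives act upstream of Hippo, was at 1.32, 1.70 and 1.18, against −0.18 and 0.18 in control clones 1 and 2. MINK1, a kinase related to those that phosphorylate LATS, was at 0.48, 0.47 and 0.31, against −0.04 and 0.04, and STK24, a kinase of the same wider family as STK3, at −0.40, −0.33 and −0.20, against 0.04 and −0.04. NDRG1, a stress-induced protein that is no core Hippo component, was at 1.11, 1.26 and 0.97, against 0.15 and −0.15. None of these 4 passed the adjusted threshold (limma, adjusted p = 0.626 each).

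Targets of the serum response factor SRF and its cofactors, a list that shares an actin-dependent control with YAP targets, also averaged lower. Of 12 measured out of 18, 11 had a lower mean. In all 12 control clone 2 was the highest clone, beside 22.6% of all genes. The median difference was −0.30, but −0.06 without control clone 2 and −0.56 without control clone 1. Every CDH26 clone was below both controls in 3 of the 12 (VCL, NEXN and TPM1), beside 9.93% of all genes. VCL, the actin anchor vinculin, was at −0.74, −0.64 and −0.43, against −0.27 and 0.27. Serum and ERK early genes, 16 measured of 18, had a median of −0.17, with control clone 2 highest in 11, beside 22.6% of all genes. Without control clone 2 that median was 0.0017, and without control clone 1 it was −0.48. Of the 16, 10 had a lower and 6 a higher mean. Every CDH26 clone was below both controls in 3 of them and above in 4, beside 9.93% and 8.98% of all genes. EGR1, an early growth response factor, differed by 0.61 ± 0.16 (SE) and the ERK phosphatase DUSP6 by −0.43 ± 0.14. The 5 basal squamous markers measured of 12 had a median of 0.61, or 0.16 with control clone 2 left out and 0.80 with control clone 1 left out. In 3 of the 5 every CDH26 clone was above both controls, beside 8.98% of all genes. The 9 mesenchymal markers of 15 had a median of 0.01. KRT14, the basal keratin, differed by 2.72 ± 0.43 and lumican (LUM) by 1.59 ± 0.42. Neither passed the adjusted threshold (limma, adjusted p = 0.626 each). Of the 9 mesenchymal markers 4 had a lower and 5 a higher mean. Only LUM among them had every CDH26 clone above both controls, beside 8.98% of all genes. The part of the genes of these lists in the values of the targets was not tested.

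**Figure D4:**
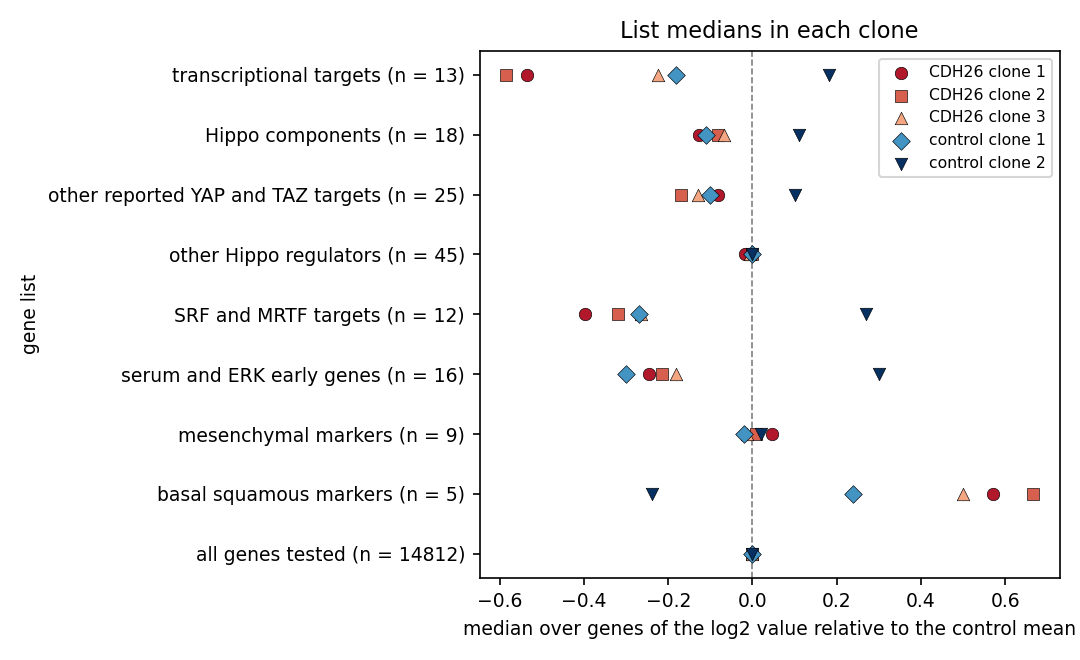
Median over the measured genes of each list of the log2 value relative to the control mean (x axis), in each of the 5 clones, with lists on the y axis. Red markers are CDH26 clones and blue markers control clones. For the transcriptional targets the medians are −0.54, −0.59 and −0.22 in CDH26 clones 1 to 3, against −0.18 and 0.18 in control clones 1 and 2; all genes lie at 0.00.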

How the data were processed

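Each of 5 clones gave 1 Affymetrix Gene 2.0 ST array, and the labels set the groups. The values are log2 values deposited by the authors, each probe set centred on the mean of the control clones (largest absolute sum of the control values 1e-06); base 2 is assumed. Per the submitters' processing notes the software was Affymetrix Expression Console; for summarisation, background correction and build the entry is: not given in the sources used here. Exact ties between arrays are common (only 46.3% of genes took 5 different values), for reasons not recorded.

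The array annotation named 15835 of 44607 probe sets, and 14812 genes were analysed, averaging the probe sets where a gene had several (651 genes). No filter on low values was possible. The comparison used lmFit and eBayes of limma 3.58.1 under R 4.3.3, two-sided, checked on simulated data, with Benjamini-Hochberg adjustment over all genes. Members and lists were chosen with earlier results of these data known, so lists are described by counts and medians, with no test. Genes given clone by clone were those separated between groups or with an unadjusted p under 0.05, YAP1, WWTR1 and canonical targets, with most other members added after their values were seen; of each other list, up to 4 genes with the smallest p, fewer being printed. Promoter windows are from RefSeq. Figures used matplotlib 3.10.9. Alternatives were centring on array medians, other variance models, a replicate block, weights per array, omission of each clone, natural logarithms, genes without ties, genes with 1 probe set, a threshold of 0.1 and other memberships.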

Additional observations from a re-analysis of the deposited data

How the results depend on the processing

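With all clones in the fit, limma called 0 of 14812 genes at an adjusted p of 0.05 or 0.1 (593 lower and 520 higher had an unadjusted p under 0.05), and 0 with other variance models, array weights, natural logarithms or array medians; restricted to genes without ties it called 1, which was no member. Leaving out each clone in turn gave 0 to 186 genes and 0 to 3 members, the highest values without control clone 1. The median target difference ranged from −0.56 to −0.16 with each clone left out, smallest without control clone 2, and that of the components from −0.198 to −0.0615, largest without control clone 1. The number of targets with every CDH26 clone below the controls ranged from 7 to 11, and of components from 5 to 14, both highest without control clone 1; without control clone 2 they were 8 and 5. Of all 14812 genes, 4001 (27.0%) had every CDH26 clone below control clone 2, the share beside the counts without control clone 1. Every CDH26 clone was below control clone 1 in 3810 of the 14812, the share beside the counts of 8 and 5. The cause was not tested. If the deposited values are natural logarithms, the medians become −0.68 and −0.13. FOXF2, SAV1, AMOTL1 and TEAD3 changed direction: with each clone left out FOXF2 ranged from −0.15 to 0.17, SAV1 from −0.36 to 0.31, AMOTL1 from −0.12 to 0.11 and TEAD3 from −0.0231 to 0.303, and with array weights FOXF2 was at −0.0005. Clones of different constructs share a number in the labels, which give no other pairing. Deviations of same-numbered clones correlated at −0.20 and −0.21 over genes. Both values rest on 1 control contrast, since the control clones are equal and opposite. They cannot show whether the clones were paired. With the replicate block 0 genes were called, the medians were −0.56 and −0.11, and AMOTL1 was at 0.016.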
